A study of Mus musculus with 20 samples.

Results

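The genes described here are 10 genes of the NRF2 antioxidant response, taken by symbol from a table of 33243 genes. They are the transcription factor gene Nfe2l2, which encodes NRF2, and 9 genes that NRF2 is known to control, Sqstm1, Hmox1, Nqo1, Slc7a11, Gclc, Gclm, Txnrd1, Srxn1 and Prdx1. All 10 were in the table, and all 10 were among the 16632 genes tested. RNA was measured by bulk sequencing in dural CNS-associated macrophages (dCAMs), the macrophages of the outermost meninx. The mice carried 1 Ccr2creERT2 allele and the R26tdT reporter on both alleles, so that tamoxifen switches on the red protein tdTomato (tdT) in cells that express Ccr2, a receptor of blood monocytes, at that time. All 10 mice had been depleted of macrophages with the CSF-1R inhibitor BLZ945 (200 mg per kg on each of 7 days), and received 2 mg tamoxifen on the last of these days and again 2 and 4 days later. After 8 weeks, 5 mice were injected with bacterial lipopolysaccharide (LPS, 2.5 mg per kg) and 5 with PBS (CTL), and dura was taken 12 h later. From each mouse the CD45int CD11b+ CD206int-high cells were sorted into 1 tdT+ and 1 tdT− library, which gives 4 groups of 5 libraries. The label records whether a cell or its precursor expressed Ccr2 around the tamoxifen injections, so a tdT− cell may still come from a monocyte that escaped recombination or arrived later.

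NRF2 is held in the cytoplasm by KEAP1, which passes it to a CUL3 ubiquitin ligase for degradation. Oxidants and electrophiles modify KEAP1, NRF2 then escapes, pairs with a small MAF protein and binds antioxidant response elements (AREs) at genes for glutathione synthesis, the thioredoxin system, heme breakdown and quinone reduction. BACH1 competes for the same elements. In macrophages the pathway is known to be engaged after LPS, and much of its control lies in the stability of the NRF2 protein, which RNA does not show.

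Levels are in CPM, that is counts per 1000000 of the TMM-scaled library total. Library totals ran from 6017650 to 18925908 counts, with 6017650 to 12208203 in the CTL and 12073566 to 18925908 in the LPS mice, so depth and treatment went together and cannot be told apart. A count of 3 or fewer was taken as the floor of a library, and 8 to 10 of the 10 genes were above it in each library. All 12 border macrophage markers, Mrc1, Lyve1 and Cd163 among them, were above the floor in every library, with a summed level of 10857 to 27381 CPM. In the tdT− CTL group 6671 to 9365 genes reached 10 counts, against 10024 to 11987 in the other groups. The tdT− CTL library of mouse 174 had the fewest genes, the lowest border macrophage sum of its group (11488 CPM) and the highest dendritic cell (3329 CPM) and monocyte (1184 CPM) sums. For Slc7a11, Txnrd1 and Gsr, and for some comparisons of Nfe2l2, Sqstm1 and Prdx1, values are given with and without this library. The tdT− CTL library of mouse 179 held 4668 CPM of summed fibroblast markers, against 10.9 to 1068 CPM in all other libraries. In bulk samples, fewer cells of a type and less RNA per cell cannot be told apart.

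RefSeq promoter windows, which run from 250 bases before to 50 bases after an annotated start (GRCm38.p6), were at hand for 8 of the 10 genes, with 3 windows for Txnrd1, which has 3 annotated starts, and 10 in all. On either strand, 5 of the 10 windows held the ARE core TGACNNNGC, in Nfe2l2, Gclm, Srxn1, Txnrd1 and Prdx1, and 12.4% of all 32851 promoter windows held it. The Slc7a11, Nqo1 and Sqstm1 windows held no ARE core, and sequence outside the windows was not searched. The Slc7a11 window held the ATF4 element TGATGNAA at 2 places, starting 66 and 47 bases before the start, and 3.97% of all windows held that element. ATF4 is the transcription factor of the amino acid and unfolded protein stress response and is a known regulator of Slc7a11. The AP-1 motif TGACTCA was in the Srxn1 and Prdx1 windows, at 2 places each, against 5.2% of all windows, and 1 of the Prdx1 matches lies inside the ARE core there. A match is a run of letters and not a measured binding site. The 150 bases before the start of the genes that the results turn on, and of Gclm as a further target, are printed 5′ to 3′ on the strand of the gene, with the ATF4 elements of Slc7a11 and the ARE cores of the others in capitals. They lie at chr3:50443614-50443763 on the minus strand for Slc7a11, and on the plus strand at chr10:82859056-82859205 for Txnrd1 (the 1 window of its 3 with an ARE core, before a start that lies inside the gene model), chr4:116685449-116685598 for Prdx1 and chr3:122245407-122245556 for Gclm.
Slc7a11: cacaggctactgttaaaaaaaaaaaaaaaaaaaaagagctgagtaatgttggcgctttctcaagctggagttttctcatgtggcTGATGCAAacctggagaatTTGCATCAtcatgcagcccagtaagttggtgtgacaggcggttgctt
Txnrd1: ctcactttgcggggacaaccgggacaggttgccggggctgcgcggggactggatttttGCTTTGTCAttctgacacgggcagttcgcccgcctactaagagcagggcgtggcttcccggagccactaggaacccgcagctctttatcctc
Prdx1: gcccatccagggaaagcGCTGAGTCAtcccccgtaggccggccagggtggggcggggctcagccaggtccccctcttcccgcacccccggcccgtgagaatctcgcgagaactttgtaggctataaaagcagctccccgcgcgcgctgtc
Gclm: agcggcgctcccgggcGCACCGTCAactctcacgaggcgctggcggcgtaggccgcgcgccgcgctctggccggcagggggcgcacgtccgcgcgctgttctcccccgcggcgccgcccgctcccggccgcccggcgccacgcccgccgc

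**Figure D1:**
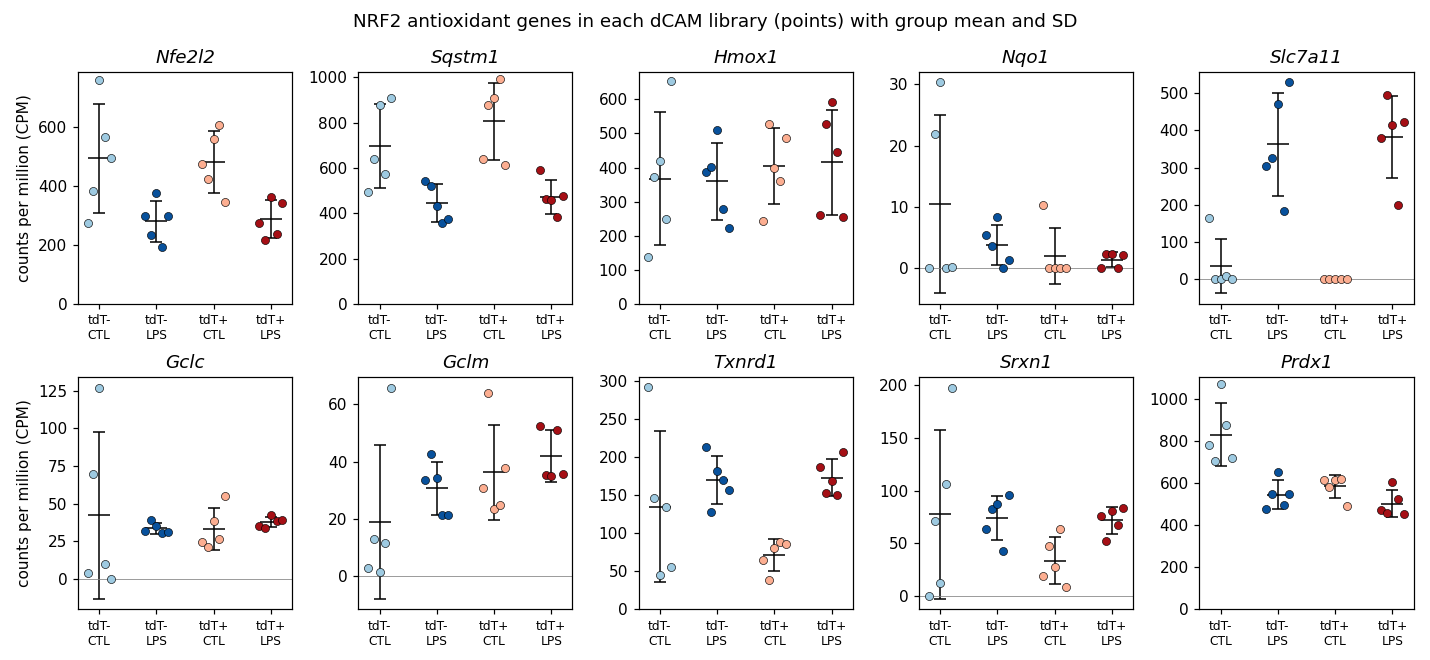
Level of each of the 10 genes in CPM on linear axes, with 1 point per library, 4 groups of 5 libraries, and the group mean and SD as bars. Slc7a11 is at or under 8.92 CPM in all CTL libraries but the tdT− library of mouse 174 (164 CPM) and lies between 184 and 529 CPM under LPS, while the Hmox1 ranges of all groups overlap.

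Per kilobase of merged exons, the scale on which genes can be compared, Prdx1, Sqstm1 and Hmox1 held the first 3 places in every group and Nfe2l2 the 4th. In tdT+ CTL dCAMs the means were 240.1 CPM per kb for Sqstm1, 231 for Hmox1 and 192 for Prdx1, and the ranges of these neighbours overlapped. Nfe2l2 followed at 127 ± 27.6 CPM per kb (SD, n = 5). The remaining genes stayed at or under 27.6 CPM per kb in every group mean. Slc7a11 was the lowest of the 10 in both CTL groups, at 2.50 CPM per kb in tdT− and 0.0313 in tdT+ dCAMs. Under LPS it stood in 6th place in tdT− (26.0) and in 5th place in tdT+ dCAMs (27.4 CPM per kb), with a range that overlapped those of Srxn1 and Txnrd1. Nqo1 took the last place under LPS, at 2.41 and 0.855 CPM per kb.

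The first comparison asked how the response genes of repopulated dCAMs changed 12 h after LPS, in each population. In tdT+ dCAMs Slc7a11, the cystine importer, rose from 0.436 ± 0.918 to 382 ± 110.3 CPM (SD, n = 5), and it was the only one of the 10 genes to pass both limits (Benjamini-Hochberg adjusted p under 0.05 over all genes and absolute log2 fold change over 1). Txnrd1 was higher in all 5 tdT+ LPS libraries than in any tdT+ CTL library without passing. The log2 fold changes of Nfe2l2, Sqstm1 and Prdx1 lay between −0.82 and −0.22 in both populations, and Hmox1, a widely used NRF2 readout in macrophages, showed nearly the same mean with and without LPS. In tdT− dCAMs 0 of the 10 genes passed both limits in edgeR, with 4 at an unadjusted p under 0.05, and 0 passed in DESeq2 or in limma-voom with quality weights.

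Of all genes tested, 7.20% passed as higher and 4.27% as lower in tdT− dCAMs, and 3.37% and 2.52% in tdT+ dCAMs, where the response genes had 1 higher and 0 lower of 10. With the adjusted p alone, 3 of the 10 genes were lower in tdT− dCAMs (Nfe2l2, Sqstm1 and Prdx1) against 4.85% of all genes, and 1 in tdT+ dCAMs (Sqstm1) against 2.83%. The treatments were without overlap in tdT− dCAMs for Slc7a11 (higher) and Prdx1 (lower), where 9.32% of all genes were higher and 3.31% lower without overlap. In tdT+ dCAMs they did not overlap for Slc7a11 and Txnrd1 (higher) and Sqstm1 (lower), against 10.6% and 7.19% of all genes. The median log2 fold change of the 10 genes was −0.20 in tdT− and 0.11 in tdT+ dCAMs, beside 0.02 and 0.01 for all genes tested.

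**Figure D2:**
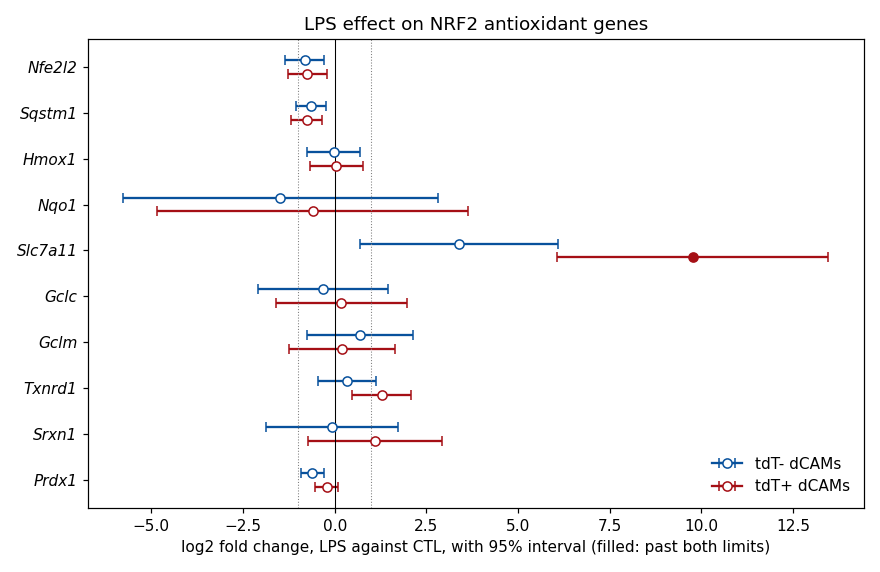
Log2 fold change of the 10 genes under LPS against CTL, with the 95% interval from the joint fit, in tdT− (blue) and tdT+ (red) dCAMs. Filled points passed both limits, and Slc7a11 in tdT+ dCAMs (9.77) is the single filled point, while Hmox1 sits at −0.03 and 0.04.

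Nfe2l2 itself (chromosome 2, 75675513 to 75704641 of GRCm38, minus strand) was measured at 273, 381, 758, 565 and 493 CPM in the tdT− CTL libraries of mice 174, 175, 177, 178 and 179, and at 297, 232, 377, 194 and 299 CPM in the tdT− LPS libraries of mice 54, 56, 59, 60 and 61. The mean was 494 ± 185 CPM in CTL and 279.8 ± 70.2 CPM under LPS (SD, n = 5), and the groups overlapped through the library of mouse 174. Its log2 fold change was −0.82 ± 0.26 (SE, adjusted p = 0.0386), and −0.99 without that library (adjusted p = 0.00691), both short of the fold limit. For tdT+ dCAMs, in the same order of mice, the libraries held 475, 422, 558, 607 and 344 CPM in CTL and 273, 218, 362, 236 and 342 CPM under LPS. Of the CTL libraries, that of mouse 179 lay within the LPS range, and the log2 fold change was −0.75 ± 0.25 (adjusted p = 0.0947). In the joint fit without the tdT− CTL library of mouse 174 it was −0.77 (adjusted p = 0.0349).

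Sqstm1 (chromosome 11, 50199366 to 50210827, minus strand) encodes p62, an autophagy receptor that binds KEAP1 and so frees NRF2, and is also an NRF2 target. In tdT− dCAMs the libraries held 493, 639, 876, 573 and 909 CPM in CTL and 542, 519.5, 432, 355 and 374.5 CPM under LPS. Again the CTL library of mouse 174 was the lowest of its group and lay inside the LPS range, and the log2 fold change was −0.65 ± 0.20 (adjusted p = 0.0355). Without that library the log2 fold change was −0.78 (adjusted p = 0.00989). In tdT+ dCAMs the CTL libraries held 637, 878, 907, 992 and 615 CPM and the LPS libraries 590.0, 463, 457, 381 and 475 CPM, so that all 5 LPS libraries were below all 5 CTL libraries. The mean was 806 ± 169.5 CPM in CTL and 473 ± 74.9 CPM under LPS (SD, n = 5; log2 fold change −0.77 ± 0.20, adjusted p = 0.0204). Sqstm1 overlaps Mrnip on the opposite strand, and the strand setting of the counting is not given in the sources used here.

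Hmox1 (chromosome 8, 75093621 to 75100589, plus strand) encodes heme oxygenase 1, which opens the heme ring and releases iron, and BACH1 represses it. The tdT− CTL libraries held 136, 373, 419.6, 249.8 and 655 CPM and the tdT− LPS libraries 386, 403, 509.7, 277 and 222 CPM. The tdT+ CTL libraries held 244, 528, 399.7, 362 and 485 CPM and the tdT+ LPS libraries 259.6, 527, 593, 445 and 254 CPM. Each treatment range overlapped the other over most of its width in both populations. The log2 fold change was −0.03 with a 95% interval of −0.75 to 0.70 in tdT− dCAMs (adjusted p = 0.987) and 0.04 with an interval of −0.68 to 0.77 in tdT+ dCAMs (adjusted p = 1). A change of 1 log2 unit lies outside both intervals, while changes under 0.68 log2 units in either direction lie inside both. Erythroid markers, which matter beside a heme gene, summed to 3.18 to 765 CPM in the tdT− CTL group, 2.27 to 26.8 CPM in tdT+ CTL and 0 to 33.9 CPM in the LPS groups. The tdT− CTL libraries of mice 178 and 179 held most of this signal (765 and 417 CPM), with Hmox1 at 249.8 and 655 CPM, and its part in the Hmox1 values was not tested. The highest Hmox1 value of the tdT− CTL group was in the mouse 179 library with 4668 CPM of fibroblast markers, whose part was not tested either, and without mouse 179 the log2 fold change in tdT− dCAMs was 0.29 (adjusted p = 0.600).

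Nqo1 (chromosome 8, 107388225 to 107403206, minus strand), the quinone reductase used as a standard NRF2 readout in many tissues, was close to undetected. It was at or under 3 counts in 3 of 5 tdT− CTL, 4 of 5 tdT+ CTL, 1 of 5 tdT− LPS and 2 of 5 tdT+ LPS libraries. The highest level in each group was 30.3, 10.2, 8.42 and 2.31 CPM in that order. Its log2 fold changes of −1.48 ± 2.06 in tdT− and −0.60 ± 2.04 in tdT+ dCAMs carry errors larger than the values, and a change was not detectable against this spread between libraries.

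Slc7a11 (chromosome 3, 49892526 to 50443614, minus strand) encodes xCT, the part of the cystine and glutamate exchanger that brings cystine in for glutathione synthesis. In tdT+ dCAMs the CTL libraries held 0, 0, 2.08, 0.105 and 0 CPM, which is 19 counts over the 5 libraries and 18 of them in mouse 177. The tdT+ LPS libraries held 379, 495, 414, 199.8 and 423 CPM. The lowest LPS library was 96.2-fold above the highest CTL library, and the groups were far apart. The log2 fold change was 9.77 ± 1.78 (SE, n = 5 per group, adjusted p = 0.000894), whose size rests on those few CTL counts. It passed under all 20 alternatives of the processing tried, with values from 9.39 to 13.33.

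Slc7a11 in tdT− dCAMs was at 164, 0.110, 0.614, 8.92 and 0.523 CPM in the CTL and at 304, 325, 472, 184 and 529 CPM in the LPS libraries. All 5 LPS libraries were above all CTL libraries, by 1.12-fold at the narrowest point, which is set by the CTL library of mouse 174. The means were 34.9 ± 72.4 CPM in CTL and 363 ± 138 CPM under LPS (SD, n = 5). LPS gave a log2 fold change of 3.38 ± 1.30 (adjusted p = 0.0898), and without the tdT− CTL library of mouse 174 it was 7.13 (adjusted p = 0.000344). With the mouse as a replicate block it was also 7.13 (limma-voom, adjusted p = 0.00265), so this result passes or misses by 1 library and by the fit.

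That library also stood apart in other genes. Gsr, which encodes glutathione reductase, was at 689 CPM in it and at 0.393 to 53.4 CPM in the other tdT− CTL libraries, beside 378 to 724 CPM in the tdT− LPS libraries. Txnrd1 was at 292 CPM in it and at 45.2 to 146 CPM in the others of its group. Among the dendritic cell markers, Cd209a was at 2774 CPM in it against 315 to 1199 CPM, and Flt3 at 348 against 1.02 to 43.7 CPM, while Xcr1 and Clec9a were at 0 in the whole tdT− CTL group and Ccr7 in this library was at 10.8 CPM. The summed neutrophil markers (112 CPM) lay within the range of its group. The part of these cells in its Slc7a11 level was not tested.

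Like Slc7a11, the summed neutrophil markers were higher in all LPS libraries than in any CTL library. The 9 markers summed to 67.8 to 183 CPM in tdT− CTL, 84.1 to 195 CPM in tdT+ CTL, 434 to 1091 CPM in tdT− LPS and 448 to 959 CPM in tdT+ LPS libraries. S100a8 was at 99.98 to 625 CPM in the tdT− and 99.99 to 465 CPM in the tdT+ LPS libraries. S100a9, its usual partner in neutrophils, was at 0 to 2.18 CPM in the tdT− and 0 to 0.604 CPM in the tdT+ LPS libraries. Unlike the sum, mean S100a9 was lower under LPS, at 0.917 against 3.62 CPM (tdT−) and 0.236 against 4.33 CPM (tdT+). Mean Ngp was lower too, at 0.364 against 4.84 CPM (tdT−) and 0.146 against 0.449 CPM (tdT+). For Camp the LPS mean was lower among tdT− libraries (1.43 against 5.47 CPM) but higher among tdT+ ones (2.23 against 0.0478 CPM). Only this last difference was without overlap between LPS and CTL libraries. Mmp8, a collagenase of neutrophil granules, was at 69.1 to 138 CPM in the tdT− and 56.9 to 142 CPM in the tdT+ LPS libraries and at most 0.325 CPM in CTL. Csf3r, the receptor of the neutrophil growth factor G-CSF, was at 162 to 316 and 204 to 388 CPM under LPS, against 1.96 to 117 CPM in tdT− CTL and 77.6 to 164 CPM in tdT+ CTL libraries. Retnlg was at 23.2 to 642 CPM in the tdT− LPS libraries and at 0 to 171 CPM in tdT− CTL, but at most 1.02 CPM in tdT+ LPS and 7.13 CPM in tdT+ CTL libraries. Of the 9 markers, 9 were above the floor in at least 1 tdT− LPS library and 7 in at least 1 tdT+ LPS library, against 6 and 5 among the CTL libraries of the same populations. The defining markers Ly6g and Cxcr2 were low, with at most 1.54 and 7.65 CPM in tdT− LPS and 0.156 and 0.165 CPM in tdT+ LPS libraries, and the part of neutrophils in Slc7a11 was not tested.

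**Figure D3:**
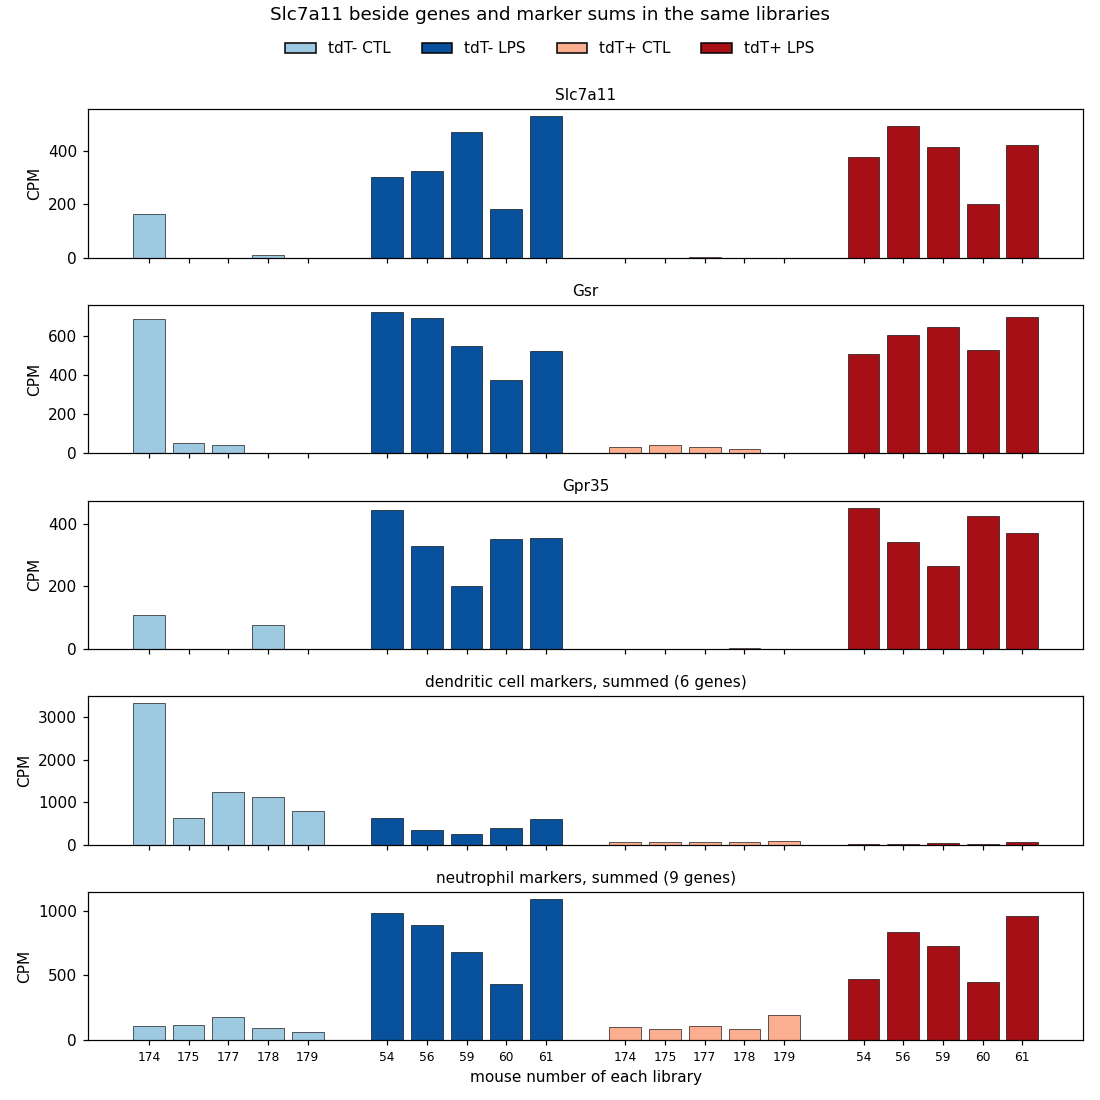
CPM of Slc7a11, Gsr and Gpr35 and of the summed dendritic cell and neutrophil markers in each of the 20 libraries, 1 bar per library, labelled by mouse number and coloured by group. In the tdT− CTL group mouse 174 holds the highest bar in Slc7a11 (164 CPM), Gsr (689 CPM) and the dendritic cell sum (3329 CPM), and the neutrophil sum is higher in all LPS libraries than in any CTL library.

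Glutathione is built by glutamate-cysteine ligase, whose catalytic and modifier subunits are encoded by Gclc (chromosome 9, 77754535 to 77794485, plus strand) and Gclm (chromosome 3, 122245557 to 122270732, plus strand). Under LPS Gclc was narrow, at 30.7 to 39.1 CPM in tdT− and 34.0 to 42.3 CPM in tdT+ dCAMs. In tdT− CTL libraries Gclc spread from 0.131 to 127 CPM, and in tdT+ CTL libraries from 21.3 to 55.3 CPM, so that both LPS ranges lay inside the CTL ranges. The log2 fold changes were −0.33 ± 0.85 in tdT− (adjusted p = 0.848) and 0.18 ± 0.85 in tdT+ dCAMs (adjusted p = 0.984). The tdT− value turned its sign in, among others, the fit without mouse 177 (0.68) and limma-voom with the mouse as a replicate block (1.79), and ran from −0.65 to 1.79 over the 20 alternatives without passing.

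Gclm spread from 1.47 to 65.8 CPM in tdT− CTL and from 21.4 to 42.8 CPM in tdT− LPS libraries, with a log2 fold change of 0.69 ± 0.70 (adjusted p = 0.542). The highest CTL value was that of mouse 179, whose library held 4668 CPM of fibroblast markers, and without this mouse the value was 2.07 (adjusted p = 0.0236). The part of fibroblasts in it was not tested. In tdT+ dCAMs Gclm held 23.5 to 64.0 CPM in CTL and 34.9 to 52.5 CPM under LPS, with overlap and a log2 fold change of 0.21 ± 0.69 (adjusted p = 0.967). The ligase genes thus gave no called change beside the cystine importer. Gclm overlaps the antisense transcript Gm17494.

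In the thioredoxin system, Txnrd1 (chromosome 10, 82833951 to 82897712, plus strand) encodes the reductase that keeps thioredoxin reduced. The tdT+ CTL libraries held 64.1, 38.3, 79.9, 87.8 and 85.6 CPM and the tdT+ LPS libraries 187, 152, 168, 150.5 and 207 CPM. All LPS libraries were at least 1.71-fold above the highest CTL library. LPS gave Txnrd1 a log2 fold change of 1.28 ± 0.39 (95% interval 0.47 to 2.09, adjusted p = 0.0521), just outside the limit on the adjusted p, and it passed in DESeq2 (adjusted p = 0.0203) and in 8 further alternatives of 20, those without mouse 174, 177 or 179 among them (adjusted p = 0.0313, 0.0370 and 0.0356). Blocking by mouse, in limma-voom, gave 1.32 (adjusted p = 0.0264).

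In tdT− dCAMs Txnrd1 held 292, 146, 45.2, 134 and 55.6 CPM in CTL and 213, 127, 181, 169 and 156 CPM under LPS. Mouse 174 was above all LPS libraries and the groups overlapped, with a log2 fold change of 0.33 ± 0.38 (adjusted p = 0.601). Without that library it was 0.81 (adjusted p = 0.103), and the tdT+ value was then 1.26 (adjusted p = 0.0123). The gene overlaps Eid3 on its own strand and Gm38560 and Gm47073 on the other.

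Srxn1 (chromosome 2, 152105516 to 152111376, plus strand) encodes sulfiredoxin, which repairs overoxidized peroxiredoxins. It spread from 0 to 197 CPM in tdT− CTL and from 8.74 to 63.8 CPM in tdT+ CTL libraries, and held 42.9 to 95.5 and 51.9 to 83.8 CPM under LPS. In tdT+ dCAMs 1 CTL library, that of mouse 178, lay inside the LPS range. The log2 fold changes were −0.07 ± 0.87 (adjusted p = 0.990) and 1.10 ± 0.88 (adjusted p = 0.578). Over the 20 alternatives the Srxn1 value in tdT− dCAMs ran from −0.41 to 1.92 without passing. It was 0.64 without mouse 179, whose tdT− CTL library held the 197 CPM and 4668 CPM of fibroblast markers, and the part of fibroblasts was not tested.

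Prdx1 (chromosome 4, 116685544 to 116700822, plus strand) encodes peroxiredoxin 1, an abundant peroxidase of the cytosol. In tdT− dCAMs the CTL libraries held 778, 703, 1071, 876 and 718 CPM and the LPS libraries 477, 549, 651, 496 and 547 CPM. All LPS libraries were below all CTL libraries, and the log2 fold change was −0.61 ± 0.15 (adjusted p = 0.00896), short of the fold limit. In tdT+ dCAMs the CTL libraries held 614, 582, 611, 619 and 488 CPM and the LPS libraries 473, 458, 605, 522 and 450.3 CPM. These overlapped, and the log2 fold change was −0.22 ± 0.15 (adjusted p = 0.494). The table also lists a Prdx1 pseudogene, and reads that match both could be split between them.

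The second comparison set tdT+ against tdT− dCAMs of the same mice, which asks whether a Ccr2 history goes with another antioxidant profile. In CTL mice the summed dendritic cell markers held 618 to 3329 CPM in tdT− against 51.2 to 77.1 CPM in tdT+ libraries. The monocyte sum held 548 to 1184 against 162 to 470 CPM, and the border macrophage sum 11488 to 22072 against 25187 to 27381 CPM. Mean Ccr2 RNA was 615 against 277 CPM. The part of cell composition in differences between the populations was not tested. In CTL mice Slc7a11 was the 1 gene of the 10 to pass, lower in tdT+ dCAMs, where 4.28% of all genes passed in either direction. Its log2 fold change was −6.31 ± 1.57 (adjusted p = 0.0225), with the tdT+ library below the tdT− library in 4 of 5 mice. This call rests on the tdT− library of mouse 174, at 164 CPM against 0.110 to 8.92 CPM in the others. Without it the log2 fold change was −2.54 (adjusted p = 0.155). With the mouse as a replicate block the call was lost in edgeR (−5.27, adjusted p = 0.141) and in limma-voom (−4.10, adjusted p = 0.164), and without mouse 178 the value was −6.15 (adjusted p = 0.0540). On the 10 CTL libraries alone the value was −6.26 (edgeR, adjusted p = 0.309). In that fit 7 of all genes passed, against 712 in the joint fit, so the share of all genes also depends on the fit.

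Of the 10 genes, Prdx1 alone had no overlap between the populations of CTL mice, and the share of all genes without overlap there was not taken. Its tdT+ library was below the tdT− library in 5 of 5 mice, all 5 tdT− libraries were above all 5 tdT+ libraries, and the group means were 829 ± 151 and 583 ± 54.9 CPM (SD, n = 5). The log2 fold change was −0.51 ± 0.15 (adjusted p = 0.0539), and −0.53 without the tdT− library of mouse 174 (adjusted p = 0.0455), both short of the fold limit. Txnrd1 was lower in tdT+ dCAMs in 3 of 5 mice (−0.92 ± 0.39, adjusted p = 0.163), and without the tdT− library of mouse 174 its log2 fold change was −0.42 (adjusted p = 0.467). Gclm was higher in 4 of 5 mice (0.93 ± 0.70, adjusted p = 0.472) and, without mouse 179, reached 2.30 (adjusted p = 0.0338). The remaining 6 genes had log2 fold changes of −2.36 (Nqo1) to 0.21 (Sqstm1), with adjusted p from 0.451 to 1.

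In LPS mice the populations still differed in marker sums. The dendritic cell sum held 262 to 638 CPM in tdT− against 11.4 to 52.6 CPM in tdT+ libraries, and the monocyte sum 287 to 744 against 138 to 292 CPM. The border macrophage sum held 10857 to 13514 against 13016 to 17864 CPM. The part of cell composition was not tested here either. Of the 10 genes 0 passed in edgeR, DESeq2 and limma-voom with quality weights, 0 had an unadjusted p under 0.05, and 0.0301% of all genes passed. The log2 fold change was 0.08 for Slc7a11 (95% interval −2.38 to 2.53), 0.03 for Txnrd1 (−0.77 to 0.83), −0.12 for Prdx1 (−0.43 to 0.19) and 0.21 for Hmox1 (−0.52 to 0.93). For Prdx1 and Nfe2l2 (0.03, −0.50 to 0.56) a difference of a log2 unit lies outside the interval, whereas for Slc7a11 it does not. The joint fit uses 1 spread per gene for all 4 groups, so the CTL libraries also enter the Slc7a11 interval. These ran from 0.110 to 164 CPM in tdT− CTL. The LPS libraries compared here held 184 to 529 CPM in tdT− and 200 to 495 CPM in tdT+ dCAMs, with means of 363 and 382 CPM.

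**Figure D4:**
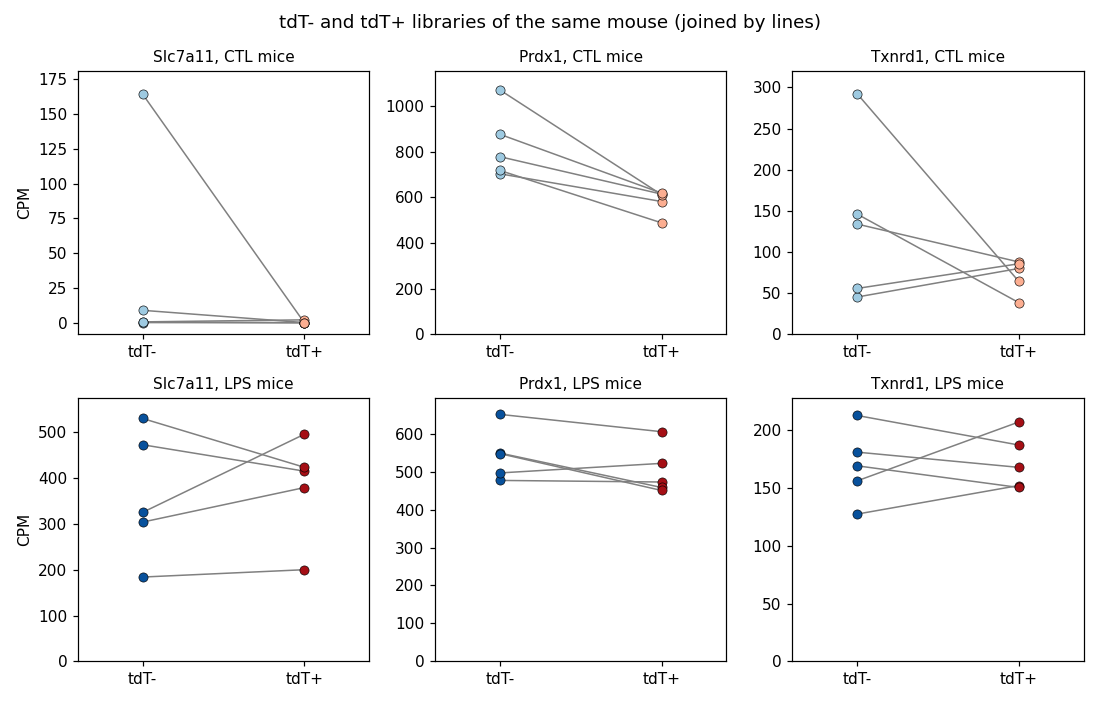
CPM of Slc7a11, Prdx1 and Txnrd1 in the tdT− and tdT+ library of each mouse, joined by a line, for the 5 CTL mice (top) and the 5 LPS mice (bottom), each panel with its own linear axis. Prdx1 is lower in the tdT+ library of all 5 CTL mice and of 4 of 5 LPS mice, and the steep Slc7a11 line of the CTL mice is mouse 174.

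A last contrast subtracted the LPS log2 fold change of tdT− from that of tdT+ dCAMs. It passed for 0 of the 10 genes in edgeR and limma-voom with quality weights and for 1 in DESeq2, with 1 at an unadjusted p under 0.05 and 1.26% of all genes past both limits. For Slc7a11 the difference was 6.38 ± 1.91 (95% interval 2.40 to 10.37, adjusted p = 0.126), larger in tdT+ dCAMs. It passed in DESeq2 (6.44, adjusted p = 0.0169) and without mouse 177 (10.27, adjusted p = 0.0163), and without the tdT− CTL library of mouse 174 it was 2.61 (adjusted p = 0.384). The difference was 0.95 ± 0.54 for Txnrd1 (adjusted p = 0.510; 0.45 and 0.796 without that library) and 0.39 ± 0.21 for Prdx1 (adjusted p = 0.461). Of the other 7 genes, Hmox1, Nfe2l2 and Sqstm1 had differences between −0.12 and 0.07, and the largest was that of Srxn1 (1.16 ± 1.23, adjusted p = 0.893).

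Genes around the 10 were taken from 8 lists of the same pathway, 86 genes in all, of which 84 were in the table and 83 were tested. In tdT− dCAMs 9 of them passed as higher and 14 as lower under LPS, and in tdT+ dCAMs 11 and 10, beside the shares of all genes given for each direction. The median log2 fold change was −0.17 in tdT− (−0.10 with Chac1 and Hpx, at 0 in a group, set to their bounds) and −0.02 in tdT+ dCAMs. Fitted to the tdT− libraries through limma-voom with the mouse as a replicate block, 35 of the genes passed, against 23 in edgeR, beside 4523 and 1907 of all 16632 genes.

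The thioredoxin and peroxide list had changes in both directions, where of 13 genes 4 passed as higher and 3 as lower in tdT− dCAMs, and 5 and 2 in tdT+ dCAMs. Sod2, the manganese superoxide dismutase of mitochondria, rose from 57.8 ± 36.0 to 2021 ± 648 CPM in tdT− (log2 fold change 5.13 ± 0.38, adjusted p = 1.35e-08) and from 65.8 ± 11.6 to 2139 ± 544 CPM in tdT+ dCAMs (5.02 ± 0.38, adjusted p = 1.30e-08; SD and SE, n = 5 per group). Sod1, its cytosolic copper and zinc counterpart, fell in tdT− dCAMs, from 61.8 to 16.6 CPM (−1.89 ± 0.44, adjusted p = 0.00594). Unlike Prdx1, the peroxiredoxin genes Prdx5 (2.41 in tdT− and 2.17 in tdT+) and Prdx6 (2.51 and 3.66) rose in both populations, and Prdx4, the peroxiredoxin of the endoplasmic reticulum, fell (−1.81 and −1.29). Cat, which encodes catalase, fell from 225 to 64.0 CPM in tdT− (−1.82) and from 277 to 51.4 CPM in tdT+ dCAMs (−2.43). Msrb1, a methionine sulfoxide reductase, rose (2.36 and 2.78), and Txn1, the substrate of Txnrd1, rose in tdT+ dCAMs (1.58 ± 0.22, adjusted p = 5.00e-05) and had a value of 0.97 in tdT− dCAMs.

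Of 18 tested genes in the glutathione list, 2 passed as higher and 3 as lower in tdT− dCAMs, and 3 and 2 in tdT+ dCAMs. Glrx, a glutaredoxin that removes glutathione from proteins, rose from 86.8 ± 22.2 to 509 ± 140 CPM in tdT− (2.55 ± 0.28, adjusted p = 2.81e-06) and from 36.9 ± 13.0 to 557 ± 138 CPM in tdT+ dCAMs (3.91 ± 0.30, adjusted p = 1.42e-08). Gsr rose in tdT+ dCAMs (4.52 ± 1.32, adjusted p = 0.0420) and, with the outlying library of mouse 174, had a log2 fold change of 1.87 ± 1.18 (adjusted p = 0.296) in tdT− dCAMs. Without that library the latter was 4.53 (adjusted p = 0.0117). Chac1, a glutathione-degrading enzyme and ATF4 target, had 0 counts in all 10 CTL libraries and means of 1.72 and 1.76 CPM under LPS, at least 4.57-fold and 5.19-fold above a floor of 3 counts per library. Gpx1, the main cytosolic glutathione peroxidase, fell in both, from 537 to 196 CPM in tdT− and from 252 to 115 CPM in tdT+ dCAMs, as did Gpx3 and Gsto1 in tdT− (−1.77 and −1.32) and Gstm1 in tdT+ dCAMs (−1.82). The CTL spread of Gpx3 in tdT− dCAMs, 213 to 3024 CPM, had its top value in mouse 179, whose library also held 4668 CPM of fibroblast markers, and their part was not tested.

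In the heme and iron list 1 of 11 tested genes was higher in each population, and 2 were lower in tdT− and 3 in tdT+ dCAMs. Fth1, the ferritin heavy chain, rose from 5955 to 33588 CPM in tdT− (2.50 ± 0.14) and from 5303 to 35850 CPM in tdT+ dCAMs (2.76 ± 0.14). Ftl1, the ferritin light chain and like Fth1 a known NRF2 target, fell in both (−1.25 ± 0.13 and −1.13 ± 0.13). Blvrb, a biliverdin reductase downstream of Hmox1, fell as well (−2.30 and −2.18), and Slc40a1, the iron exporter ferroportin, fell in tdT+ dCAMs from 133 to 3.13 CPM (−5.41, adjusted p = 0.0265).

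Among 11 sensors and partners of NRF2, Cul3 rose (1.51 ± 0.39, adjusted p = 0.0127) and Maff, a small MAF partner, fell (−1.95 ± 0.56, adjusted p = 0.0255) in tdT− dCAMs, and 0 passed in tdT+ dCAMs in edgeR, with 0 at an unadjusted p under 0.05. The treatments still did not overlap in tdT+ dCAMs for 3 of the 11, all higher (Mafg, Nfe2l1 and Rbx1), against 10.6% of all genes. In tdT− dCAMs 2 were higher and 1 lower without overlap, against 9.32% and 3.31% of all genes. Keap1 held 21.6 to 96.2 CPM in tdT− CTL and 31.3 to 47.9 CPM in tdT− LPS libraries (−0.75 ± 0.48, adjusted p = 0.303), and 3.99 to 33.4 and 29.2 to 45.3 CPM in tdT+ dCAMs (0.82 ± 0.48, adjusted p = 0.381). The list of NADPH and carbon genes, which supply the electrons for both systems, had 0 of 6 past the limits in edgeR in either population, with 1 at an unadjusted p under 0.05 in each. Of 8 quinone and aldehyde genes Cbr1, Cbr3 and Ephx1 fell in tdT− dCAMs (−1.63, −2.76 and −4.37), and 0 passed in tdT+ dCAMs in edgeR, with 3 at an unadjusted p under 0.05. Beside Sqstm1, of 8 autophagy genes Tax1bp1 rose in both (3.20 and 2.69), Gabarapl1 fell in both (−1.57 and −1.33) and Map1lc3b fell in tdT+ dCAMs (−1.05).

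Slc7a11 is shared between NRF2 and ATF4, so 8 ATF4 genes were counted too. Their median log2 fold change was 0.39 in tdT− and 1.38 in tdT+ dCAMs, beside 0.02 and 0.01 for all genes. The treatments did not overlap for 2 of the 8 in tdT− (1 higher, 1 lower) and for 5 in tdT+ dCAMs (3 higher, 2 lower). Of all genes, 9.32% were higher and 3.31% lower without overlap in tdT−, and 10.6% and 7.19% in tdT+ dCAMs. Slc7a5, a transporter of large neutral amino acids, rose in tdT+ dCAMs from 22.6 to 73.9 CPM (1.71 ± 0.50, adjusted p = 0.0443). Atf3 fell in both populations, from 1437 to 59.9 CPM in tdT− (−4.58 ± 0.33) and from 1524 to 72.9 CPM in tdT+ dCAMs (−4.39 ± 0.32). Ddit4, a stress-induced inhibitor of mTORC1, was at 4.29 and 3.42 CPM in tdT− and tdT+ CTL and at 44.3 and 33.1 CPM in the LPS means (3.36 ± 1.22, adjusted p = 0.0738, and 3.28 ± 1.21, adjusted p = 0.128). Asns, asparagine synthetase, was at 1.35 and 1.09 CPM in CTL and at 21.8 and 17.5 CPM under LPS (4.02 ± 1.61, adjusted p = 0.103, and 3.97 ± 1.60, adjusted p = 0.166). Ddit3 had lower LPS means, 114 in CTL and 32.9 CPM under LPS in tdT−, and 65.6 and 27.0 CPM in tdT+ dCAMs, there without overlap. Atf4 itself was at 387 and 330 CPM in tdT− and at 281 and 342 CPM in tdT+ dCAMs. Trib3 (6.58 and 17.9 in tdT−, 2.13 and 16.3 CPM in tdT+) and Sesn2 (27.0 and 30.7, 18.7 and 38.9 CPM) had higher LPS means. Apart from Atf3 and Slc7a5 the ATF4 genes did not pass, 7 of 8 in tdT− and 6 of 8 in tdT+ dCAMs in all, with 4 of the 8 at an unadjusted p under 0.05 in each population. Between the populations of CTL mice 1 of the 83 genes passed as higher in tdT+ dCAMs (Cd163, 153 ± 76.5 in tdT− and 434 ± 164 CPM in tdT+) and 3 as lower (Glrx −1.23, Gpx1 −1.09 and Gsto1 −1.57). In that joint fit 4.28% of all genes passed in either direction. In LPS mice and for the difference of LPS effects 0 passed in edgeR, with 2 and 5 at an unadjusted p under 0.05.

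**Figure D5:**
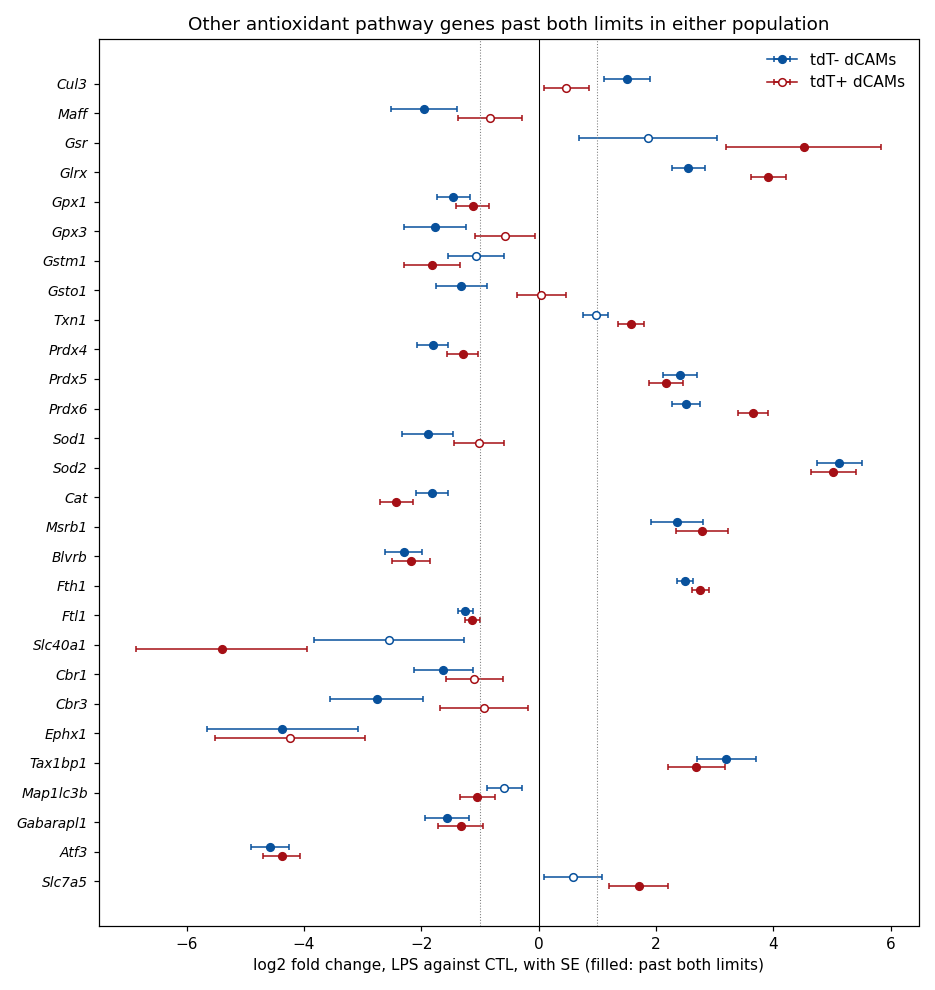
Log2 fold change with SE under LPS against CTL of the other pathway genes that passed both limits (filled points) in tdT− (blue) or tdT+ (red) dCAMs, leaving out Chac1 with no counts in CTL. Sod2 (5.13 and 5.02) and Fth1 (2.50 and 2.76) lie to the right in both populations, and Atf3 (−4.58 and −4.39), Cat and Ftl1 to the left.

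Genes with the most similar pattern were sought for 4 of the 10 genes, over the 4 group means of log2 CPM, each centred on its own mean, among the 5822 genes whose mean log2 CPM was 4 or more. For Slc7a11 the nearest was Gpr35, a G protein-coupled receptor, with a root mean square difference of 0.02 log2 units, followed by Adam8 (0.45) and S100a8 (0.76), and Gpr35 was the 1 gene within 0.3. Gpr35 held 107, 0, 0.737, 76.5 and 0 CPM in tdT− CTL libraries, so its tdT− CTL mean of log2 CPM was raised by mice 174 and 178. That of Slc7a11 was raised by the same mice, at log2 CPM of 7.36 and 3.19 against −1.80 to −0.34 in the others. For Srxn1 the nearest were Stat3 (0.05), Ptpn1 (0.05) and Tex30 (0.06), with 298 genes within 0.3. This match is on means of log2 CPM, where the 0 of mouse 174 lowers the tdT− CTL mean of Srxn1. By mean CPM in tdT− dCAMs, Srxn1 was at 77.7 in CTL and 74.3 under LPS, and Stat3 at 168 and 481. Nfe2l2 was nearest to Mast3, Gxylt1 and Far1 (0.02, 0.03 and 0.03), and Hmox1 to Snapin, Sipa1 and Xpc (each 0.03). For these 2 genes 618 and 1113 genes lay within 0.3, so that their flat or mildly lower patterns are common in the table.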

How the data were processed

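RNA of 20 libraries from 10 mice was analyzed. Per the labels and the study's methods, the authors made the libraries from low-input RNA with a PCR-based SMART-Seq kit, aligned reads with STAR and assigned them to genes with featureCounts, and deposited unscaled counts. The submitters' processing notes name STAR 2.7.11a and featureCounts 2.0.6. Genome build and strand setting of the counts are open in the sources used here. Gene coordinates and exon lengths come from GRCm38 (GENCODE M21) and only locate genes. As the kit has no molecular identifiers, counts carry PCR error as well as counting error.

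GEO's labels gave the groups. After removing genes with fewer than 10 counts in all, TMM scaling and a single fit of all libraries were done with the quasi-likelihood test of edgeR 4.0.16 (R 4.3.3), with 1 mean per group, and p-values were adjusted by Benjamini-Hochberg over 16632 genes. The tests are two-sided. SE and 95% intervals come from that fit, whose common biological coefficient of variation was 1.13. Alternatives used other scalings, filters and fits (DESeq2 1.42.0, limma-voom in limma 3.58.1), the mouse as a replicate block and leaving out each mouse.

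The tdT+ and tdT− libraries of a mouse pair, as both were sorted from the same dura. The correlation of their deviations from the group means across genes was 0.000914 to 0.0333 in CTL and 0.0471 to 0.119 in LPS mice. The 10 genes and the lists were chosen with earlier results of these data known. Pathway genes are named, up to 4 per list, direction and LPS comparison, by the smallest p among those that passed. Further ones were chosen after their values were seen. So were the genes named without passing (Keap1, Mafg, Nfe2l1, Rbx1, Ddit4, Asns, Ddit3, Atf4, Trib3 and Sesn2, and Gsr and Txn1 in tdT− dCAMs). Of the marker lists, those for B, T and NK, mast, endothelial and mural cells summed to at most 114, 5.90, 114, 64.7 and 232 CPM in any library.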

Additional observations from a re-analysis of the deposited data

Results flagged for a closer look

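In 3 of the 40 groups of 5 libraries, formed by 10 genes in 4 groups, 1 library lay far from the others by Dixon's test at 95% on log2 CPM, where chance marks about 1 in 20 groups. Nqo1 was at 10.2 CPM (63 counts) in mouse 174 and at 0 in the other mice. Slc7a11 was at 2.08 CPM (18 counts) in mouse 177 and at 0 to 0.105 CPM in the others. Prdx1 was at 488 CPM in mouse 179 and at 582 to 619 CPM in the others. These 3 were in tdT+ CTL dCAMs. Nqo1 and Slc7a11 were each at or under 3 counts in 4 of the 5 libraries there. The rate of 1 in 20 is for normally distributed values and does not hold for such groups. On the linear CPM scale 5 groups were marked, these 3 and 2 in tdT− CTL dCAMs, namely Slc7a11 in mouse 174 (164 CPM against 0.110 to 8.92 CPM) and Gclm in mouse 179 (65.8 CPM against 1.47 to 13.1 CPM).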

How the results depend on the processing

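Of the alternative log2 fold changes of the 10 genes, 997 kept their direction where called and their side of both limits, 16 passed newly, 7 no longer passed and 0 reversed. The number of the 10 genes past both limits under LPS in tdT− dCAMs was 0, and became 1 in limma-voom with the mouse as a replicate block, 1 without the tdT− CTL library of mouse 174, 3 by the adjusted p alone, and 0 to 1 when 1 mouse was left out. In tdT+ dCAMs it was 1, and became 2 in DESeq2, limma-voom with quality weights, the filterByExpr filter, the fit on the 10 libraries alone, the replicate block, without that library and by the adjusted p alone, and 1 to 2 with 1 mouse left out. Between the populations of CTL mice it was 1, and became 0 in limma-voom with quality weights, on the 10 libraries alone, in both fits with the replicate block and without that library, and 0 to 2 with 1 mouse left out. For the difference of LPS effects it was 0, and became 1 in DESeq2 and 0 to 1 with 1 mouse left out. Of the other pathway genes, 23 passed in tdT− dCAMs, 14 in limma-voom with quality weights, 13 on the 10 libraries alone and 35 with the replicate block. The replicate block changed no other call of the 10 genes. The alternative without the tdT− CTL library of mouse 174 was chosen after seeing the data. In voom-based fits the median of all genes in tdT− dCAMs under LPS was 0.68 to 0.76, and a call of a gene of low level there is relative to that shift. The causes were not tested. Nqo1 was at or under 3 counts in 3 of 5 tdT− CTL, 4 of 5 tdT+ CTL, 1 of 5 tdT− LPS and 2 of 5 tdT+ LPS libraries.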
